A study of Mus musculus with 42 samples.

Results

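The genes described here were those whose level in each of the 5 spinal cord libraries lay above their level in all 19 libraries of the other regions, in RNA bound to ribosomes that was isolated from mouse tissue labelled as mature oligodendrocytes. The method, translating ribosome affinity purification (TRAP), pulls down tagged ribosomes of a chosen cell type with the RNA they carry. The rule kept genes at 0.5 RPKM or more in at least 5 of the 24 TRAP libraries, took those whose lowest spinal cord value was above the highest value elsewhere, and left out families by name (Hox genes, ribosomal proteins, respiratory chain subunits, potassium channels, glycine and GABA receptor subunits, neurofilaments, and Klk6, S100b, Hopx, Prph and Mbp). RPKM is a read count scaled to gene length and sequencing depth. It found 193 members among 13982 genes tested, of 20661 genes listed. Before names were left out 262 genes, or 1.87% of those tested, met the rule, and 69 of them were removed by name. The rule used all 24 TRAP libraries, and the members were chosen by the very RPKM values that are given for them, so the spinal cord values below are a description of how the members were chosen and carry no test.

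The TRAP libraries came from spinal cord (replicates 3, 4, 5, 7 and 8), frontal cortex (n = 7), subcortical white matter (n = 6) and cerebellum (n = 6). The driver line, the ribosomal tag, and the age, sex and strain of the mice behind these TRAP libraries are not given in the sources used here, and nothing in the labels says that libraries of a region came from separate animals, so a p-value reflects the variation among deposited libraries, part of which may be technical. Bulk RNA was sequenced from the frontal cortex of rTg4510 mice, a line with a mutant human tau transgene driven in forebrain neurons (3 libraries labelled positive and 3 labelled negative, all with the title mark 8mo; what else the negative mice carry is not stated), and from the prefrontal cortex of mice without miR-142, of heterozygotes and of wild type (4 libraries each). The study's question, from its title, was how miR-142-3p relates to oligodendrocyte gene networks in tauopathy.

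Oligodendrocytes wrap axons in myelin along the whole central nervous system. The spinal cord holds long, thick, fast axons, large motor neurons and a high share of white matter, whereas the cortex is rich in thin, sparsely myelinated axons. Genes that distinguish spinal cord from brain can belong to the oligodendrocyte itself, to the neurons and astrocytes next to it, or to general cell machinery, and TRAP material can carry RNA of neighbouring cells.

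The label of the cells was checked against markers. The summed level of the 19 genes of mature oligodendrocytes on a fixed list of 21 that are not members was 14400 to 52400 RPKM in spinal cord (median 38100), 9860 to 67000 in cerebellum (43100), 10500 to 60300 in white matter (25300) and 6190 to 12100 in cortex (7240). Snap25, a synaptic protein of neurons, was also high, at 4633 ± 855 RPKM (SD, n = 5) in spinal cord and 6021 ± 1939 (n = 7) in cortex, so the libraries held neuronal RNA in each region. Other neuronal markers were lower in spinal cord than in cortex by mean: Syt1 was at 81.2 ± 42.2 against 721 ± 159 RPKM, Rbfox3 at 71.5 ± 22.4 against 201 ± 44.0, and Syn1 at 89.2 ± 26.9 against 283 ± 131 (SD, n = 5 and n = 7). Of the markers of tissue next to the cord, the Schwann cell gene Prx, the sensory ganglion genes Trpv1 and Avil, and the fibroblast gene Lum were listed at 0 in all 5 spinal cord libraries and were at most 3.21 RPKM in any other. The summed list of Schwann cells and peripheral myelin had a median of 423 RPKM in spinal cord. It had 193 in cortex, 296 in white matter and 847 in cerebellum. In that order, the sensory ganglion list had medians of 3.37, 1.12, 1.5 and 1.1 RPKM and the fibroblast list 56.6, 67.8, 42.6 and 46.3. Dcn, another fibroblast gene, was at 0.455 to 41.3 RPKM in spinal cord and at most 17.7 elsewhere. The summed skeletal muscle list reached 173 RPKM in spinal cord replicate 5 (at most 10.9 outside spinal cord) and the marrow myeloid list 62.7 in replicate 7 (at most 3.43). The 15 astrocyte list genes that are not members had a median sum of 2960 RPKM in spinal cord, 3260 in cortex, 4490 in white matter and 1640 in cerebellum. By mean, Gfap (350.5 against 36.2 in cortex), Aqp4 (182.3 against 77.5) and Aldh1l1 (8.71 against 6.52) were higher in spinal cord and Slc1a3 (30.4 against 71.3) lower. The ependymal gene Foxj1 was higher (49.3 against 4.45) and Ccdc153 lower (0.0319 against 0.0624). The part of RNA from these other cells in the members' levels was not tested. Depth, recovered as whole reads from the RPKM steps, was 3.26 to 12.99 M reads in gene models in spinal cord, 5.8 to 24.73 in cortex, 7.36 to 16.5 in white matter and 12.02 to 36.79 in cerebellum. Within the spinal cord group, replicates 4 and 7 resembled the rest least, with a mean correlation to their group of 0.797 and 0.796 against 0.836 to 0.85 for the other 3, and replicate 7 was the shallowest. Without replicate 4 the rule found 301 genes, without replicate 7 it found 293, and without both 516, each time with all 193 members among them. That the members stayed was fixed in advance, since leaving out a library can only loosen the rule's comparison.

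The members were abundant. Their median spinal cord mean was 162 RPKM, against 14.1 over all genes tested, and the range ran from 8.9 (Shisa8) to 8417 (Tmsb4x). The median ratio of the spinal cord mean to the mean of the other libraries was 3.67, from 1.63 to 74.5 (Chodl). The gap, the lowest spinal cord value divided by the highest value elsewhere, was smaller, with a median of 1.23. It reached 1.5 for 58 members, 2 for 18 and 3 for 2, and its largest value, 3.95, belonged to the predicted gene Gm16532, at 78.4 to 166 RPKM in spinal cord and at most 19.8 elsewhere. None of the members passed the filter on low values through the spinal cord alone, and 11 were under 0.5 RPKM in at least 1 other library. The spread over the 5 spinal cord libraries had a median coefficient of variation of 30.7%, against 72.8% over all genes tested. The rule itself favours genes that are even and high in spinal cord, so these contrasts with all genes are not a separate trait of the members.

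Near the threshold the rule separated genes by very little. The member Idnk was at 34.31 RPKM in its lowest spinal cord library and 34.28 in white matter replicate 2, and Srp9, Plekhb2, Mrpl13 and Fxr2 had gaps of 1.004, 1.005, 1.007 and 1.009. Just outside were Rltpr, Pea15a, Bend6, Taf8 and Zc3h18, with ratios of 0.996, 0.995, 0.994, 0.993 and 0.991. Within 1.1 times of the threshold lay 50 members and 73 non-members.

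**Figure D1:**
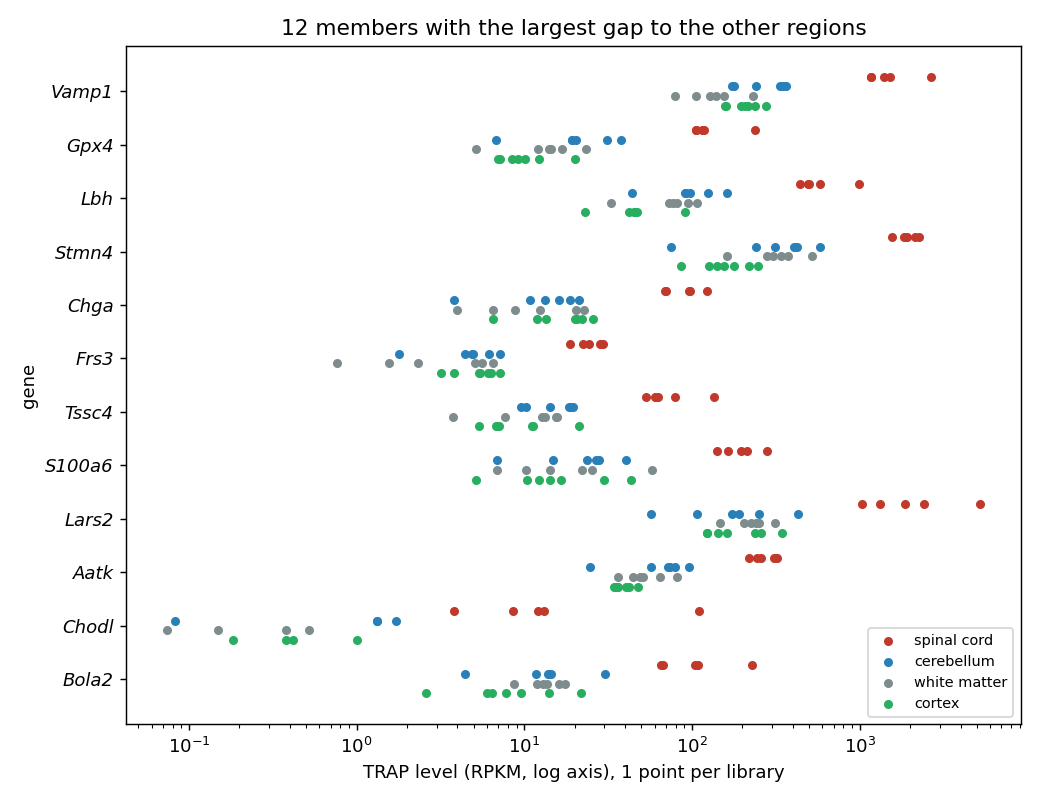
TRAP level in RPKM on a log axis for the 12 members with the largest gap, leaving out predicted genes; each point is 1 library, coloured by region, and values of 0 are not drawn. All spinal cord points lie to the right of the other regions, as the rule requires, and Chodl has 1 spinal cord library at 110.5 RPKM, far above its other 4.

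Of the members that are not predicted genes, the vesicle gene Vamp1 had the largest gap. Vamp1, the vesicle SNARE of fast-firing brainstem and spinal neurons (chr6:125215581-125222306, mm10), was at 1402, 2660, 1167, 1168 and 1526 RPKM in spinal cord replicates 3, 4, 5, 7 and 8, an order kept below. Elsewhere its lowest, median and highest values were 158, 208 and 277 RPKM in cortex, 79.6, 134 and 230 in white matter, and 174, 289 and 364 in cerebellum. The lowest spinal cord library was thus 3.21 times the highest other library, cerebellum replicate 7. Cplx1, complexin 1, which clamps and primes the release machinery, was at 1132, 1776, 1267, 1761 and 1758 RPKM and at most 850 elsewhere. Chga, the dense-core granule protein chromogranin A, was at 70.2, 69.0, 122.6, 95.8 and 97.7 RPKM against at most 25.9. These are 3 of 8 members assigned to vesicles, peptides and the endocytic coat, whose ratio of spinal cord to other mean ran from 2.37 to 23.6. Of the 12 genes on the list of fast axons and synapses, Vamp1 and Cplx1 were the 2 members. The other 10 together were at 1300 to 1940 RPKM in spinal cord and 1510 to 2860 in cortex.

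Both members from the list of motor neuron and cholinergic genes were highest in the same library. Chodl, chondrolectin, a marker of fast motor neurons (chr16:78930841-78951736), was at 12.1, 110.5, 3.81, 13.1 and 8.61 RPKM in spinal cord and at most 1.003 in cortex, 0.522 in white matter and 1.72 in cerebellum. Calca, which encodes calcitonin gene-related peptide, was at 18.8, 105.7, 33.6, 13.6 and 34.4 RPKM, with a cortex median of 0 and a highest other value of 12.7 in white matter replicate 3. Replicate 4 was highest for both. The other 12 genes of the list together were at 192 RPKM in that library, within a spinal cord range of 97.1 to 242 with replicate 7 the highest, and at 15.1 to 32.1 in cortex. Also in replicate 4, Slc6a11, the GABA transporter GAT3 of astrocytes, was at 289 RPKM against 53.5 to 65.9 in the other 4. The highest value of Slc6a11 outside spinal cord was 32.3 RPKM. Of the defining motor neuron markers, Slc18a3, the vesicular acetylcholine transporter, was above 0 in all 5 spinal cord libraries (1.96 to 23.4 RPKM), Mnx1 was listed at 0 in all 5 and Chat at 0 in 2. How far motor neuron RNA takes part in the level of Chodl and Calca was not tested.

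Of the microtubule genes, Stmn4 and Stmn1 were even across the 5 libraries and Stmn3 was not. Stmn4, a stathmin that binds tubulin dimers (chr14:66344210-66361680), was at 1842, 1560, 1920, 2153 and 2257 RPKM, against at most 247 in cortex, 518 in white matter and 579 in cerebellum. Its relative Stmn1 was at 1397, 1164, 1323, 1099 and 1147 RPKM, against at most 963. Stmn3 was at 490, 806, 475, 1450 and 465 RPKM, with replicate 7 the highest. The 9 members of this role, which include the kinesin light chains Klc1 and Klc2, the dynein light chain Dynll2 and the dynein partner Nudc, had ratios of 2.02 to 7.15. Of the actin and filament genes, Tmsb4x, thymosin beta 4, which holds actin monomers, had the highest mean of all members. It was at 9220, 9260, 10190, 5450 and 7963 RPKM and at most 3825 elsewhere, in cortex replicate 7. Actb, cytoplasmic actin, was at 1365, 1317, 1323, 1635 and 1868 RPKM, while cerebellum replicate 7 reached 1251, a gap of 1.05.

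Of the 5 members assigned to oligodendrocytes, Apod had the highest level. Apod, apolipoprotein D, a lipid carrier of mature oligodendrocytes (chr16:31296192-31314808), was at 7801, 3625, 5667, 3873 and 8660 RPKM. Its lowest, median and highest values were 195, 272 and 537 RPKM in cortex, 369, 1015 and 2686 in white matter, and 440, 2379 and 3414 in cerebellum. Replicates 4 and 7 were the low libraries, and the 19 list genes that are not members were also low there, at 18000 RPKM summed in replicate 4 and 14400 in replicate 7 of a spinal cord range up to 52400. Aatk, a kinase of oligodendrocytes and neurons, did not follow that pattern: it was at 218, 320, 246, 258 and 308 RPKM, and at most 96.0 elsewhere. Serpina3n, a secreted protease inhibitor of reactive glia, was at 34.8, 30.4, 42.6, 20.3 and 48.9 RPKM, and at most 13.3 elsewhere. Of the 21 genes of that list 2 were members, Apod among them, and the part of oligodendrocyte share in their levels was not tested.

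The 8 members of the sterol and other lipid role had a median ratio of spinal cord to other mean of 3.59. Over all members it was 3.67. Hmgcs1, which makes HMG-CoA at the start of cholesterol synthesis, was at 544, 289, 515, 303 and 648 RPKM, and its highest other value was 234.9. Cyp51, a later enzyme of the same pathway, ranged from 93.7 to 214 RPKM over the 5 libraries, against at most 89.3. They were the 2 members among 17 cholesterol synthesis genes tested. Npc2, the lysosomal protein that hands cholesterol on, was at 519.5, 618, 486, 543.8 and 325 RPKM, just above 312 in cerebellum replicate 7.

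Redox genes had a large gap for their level. Gpx4, the glutathione peroxidase that reduces lipid peroxides in membranes (chr10:80047166-80056439), was at 105.4, 115.4, 118.8, 236.7 and 105.6 RPKM, with medians of 9.21 in cortex, 14.2 in white matter and 19.8 in cerebellum and a highest other value of 37.6. Replicate 7 was high and the other 4 nearly equal. Bola2, which works with the glutaredoxin Glrx3 in handling iron-sulphur clusters, was at 67.2, 65.8, 104.9, 229 and 109.4 RPKM, again highest in replicate 7. The 5 members of this role had a median gap of 2.15, against 1.23 over the 193. Mt1, metallothionein 1, a metal-binding protein, was at 1030, 1394, 1130, 1893 and 991 RPKM, with 811 in cerebellum replicate 3. The 13 genes of the metal, redox and small heat shock list that are not members summed to 38600 RPKM in replicate 7 and 30400 in replicate 4, with a spinal cord median of 17200.

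Mitochondrial and translation members were also raised most in replicate 7. Lars2, the mitochondrial leucyl-tRNA synthetase, was at 1323, 2411, 1028, 5217 and 1854 RPKM, and at most 428 elsewhere. The 15 mitochondrial members, among them the import subunits Tomm5 and Tomm7 and the ribosomal proteins Mrpl12 and Mrpl13, had ratios of 1.92 to 11.3, and their median deviation from the spinal cord mean, in log2 units, was 0.45 in replicate 7 and -0.31 in replicate 8. Fau, a ubiquitin-like fusion with a small-subunit ribosomal protein, was at 141.3, 145, 176, 320 and 174 RPKM, and at most 77.6 elsewhere. The elongation factor subunits Eef1b2 (430, 335, 427, 702 and 317 RPKM) and Eef1d (62.0, 114.6, 50.1, 109.8 and 74.2 RPKM) had gaps of 1.40 and 1.12. Fau, Eef1b2 and Eef1d were 3 of 17 translation factors tested. Several of these small housekeeping genes, and Actb and Tmsb4x, have processed copies in the mouse genome, and how the authors' counting divided such reads is not given in the sources used here.

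Small calcium-binding proteins formed a group on chromosome 3. S100a6 was at 141.3, 214, 164, 279 and 196 RPKM, against at most 57.9 in white matter replicate 3. S100a16 was at 937, 834, 942, 709 and 1011 RPKM, against at most 583.7 in cerebellum, and S100a13 at 94.5, 49.0, 104.4, 139.8 and 167.7, against at most 45.6. S100a6 starts 75.6 kb from S100a16, and S100a13 lies on the far side of S100a16 from it. Crip1, a small zinc-binding LIM protein, varied more, at 43.7, 17.7, 111.6, 148.6 and 72.8 RPKM, against at most 9.69.

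Transcription factors and cofactors made up 12 members. Lbh, a transcription cofactor named after limb bud and heart (chr17:72918305-72941946), was at 440, 491, 988, 502 and 577 RPKM, and at most 162.5 elsewhere. Its neighbour Ypel5, whose start lies 81.7 kb away, was at 927, 1711, 1083, 960 and 1057 RPKM, and at most 595 elsewhere. Ebf3, a helix-loop-helix factor of developing and mature spinal and cerebellar neurons, was at 44.2, 40.0, 65.1, 114.0 and 62.1 RPKM. It was at most 0.964 in cortex, 11.1 in white matter and 24.01 in cerebellum. Nacc2, a BTB-domain repressor, was among the most even members at 330, 340, 403, 386 and 411 RPKM, and at most 259.8 elsewhere. None of the 15 tested genes on the list of spinal neuron transcription factors was a member. The 32 genes of that list present in the data together were at 139 to 226 RPKM in spinal cord (median 211). Their summed medians were 44.4 RPKM in cortex, 99.9 in white matter and 152 in cerebellum.

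Other named members were Ywhag, a 14-3-3 adaptor protein (2027, 3348, 1490, 2908 and 2213 RPKM, against at most 1324 in cortex), and Atp6v0e2, a subunit of the vesicular proton pump (1453, 1071, 1161, 1659 and 903, against at most 592). Frs3, an adaptor of growth factor receptors, was at 18.8, 28.5, 24.3, 29.5 and 22.3 RPKM, and at most 7.21 elsewhere. Tssc4 was at 53.4, 136.4, 79.5, 63.2 and 59.9 RPKM, and at most 21.3 elsewhere. The remaining roles were the proteasome and ubiquitin (10 members, among them Psmc5 and Psmd4, with a median ratio of 2.73), splicing and RNA binding (8 members, 3.07) and protein folding and membrane insertion (6 members, 4.04). Roles were assigned by hand, after the values were known, to 107 members, and 86 had none assigned.

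**Figure D2:**
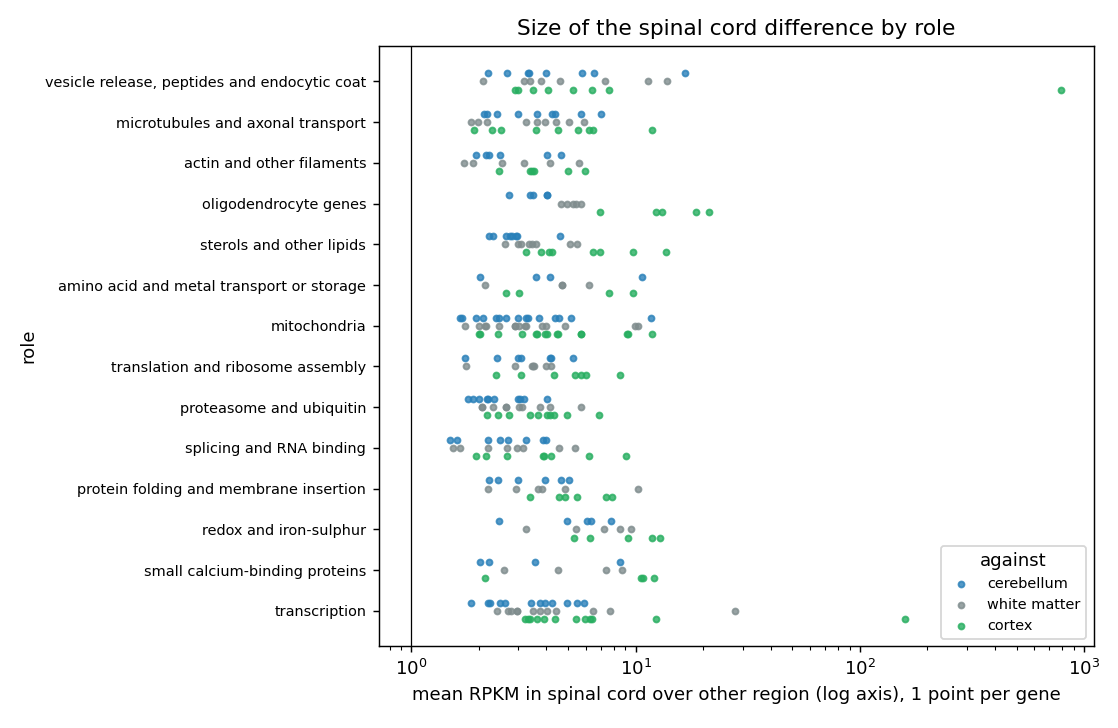
Spinal cord mean RPKM divided by the mean RPKM of cerebellum, white matter or cortex (colours), on a log axis, for the 107 members with an assigned role; each point is 1 gene against 1 region. The 5 oligodendrocyte genes are separated from cortex more than from cerebellum, and the isolated points to the right are Calca against cortex, where its median is 0, and Ebf3 against cortex and against white matter.

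The promoters of 3 members are printed to show the sequence at the start of the gene with the largest gap when predicted genes are left out (Vamp1), a high member with a TATA box at the usual place (Lbh) and a translation gene (Fau). They run from 250 bases before to 50 after the annotated start, from RefSeq on GRCm38.p6, on the strand of the gene (plus for all 3). Capitals mark, in Vamp1, the reverse complement of TTTATGG, in Lbh, TATAAA, and in Fau, a run of 16 bases of C and T that begins 3 bases before the start.
Vamp1 (chr6:125215331-125215630): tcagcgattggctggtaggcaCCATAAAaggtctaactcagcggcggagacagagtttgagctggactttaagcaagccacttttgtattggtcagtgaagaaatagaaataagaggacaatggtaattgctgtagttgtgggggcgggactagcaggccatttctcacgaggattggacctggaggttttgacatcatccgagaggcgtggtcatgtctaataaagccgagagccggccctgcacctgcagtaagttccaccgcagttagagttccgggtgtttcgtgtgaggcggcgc
Lbh (chr17:72918055-72918354): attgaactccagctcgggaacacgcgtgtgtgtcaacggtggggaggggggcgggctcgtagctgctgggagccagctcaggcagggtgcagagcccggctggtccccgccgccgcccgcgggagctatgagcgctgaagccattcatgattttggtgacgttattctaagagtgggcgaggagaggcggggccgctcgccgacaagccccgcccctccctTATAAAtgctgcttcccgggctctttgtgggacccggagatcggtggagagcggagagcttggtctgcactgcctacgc
Fau (chr19:6057697-6057996): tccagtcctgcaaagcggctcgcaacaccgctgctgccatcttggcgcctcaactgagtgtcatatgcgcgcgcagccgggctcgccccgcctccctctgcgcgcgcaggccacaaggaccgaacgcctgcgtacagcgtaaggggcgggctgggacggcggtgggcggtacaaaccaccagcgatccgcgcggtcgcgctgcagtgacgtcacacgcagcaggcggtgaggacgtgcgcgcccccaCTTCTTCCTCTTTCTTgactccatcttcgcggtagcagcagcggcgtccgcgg

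Promoters were matched by symbol for 157 of the 193 members, 10617 of the genes tested and 27025 genes in all, with the first listed start used for each. On either strand, TAATTA, the core bound by many homeodomain factors, was in 0.6% of the members' promoters, 2.6% of those of genes tested and 5.3% of all. TTTATGG, a site type of posterior Hox proteins, was in 1.3%, 1.6% and 2.8%, and TATAAA in 5.7%, 7.0% and 14.2%. These motifs do not overlap in the printed sequences, and the direct repeat of the retinoic acid receptor, with a spacer of 5 bases, was in 0.0% of the members' promoters, of those of genes tested and of all. An unbroken run of at least 8 bases of C and T from 10 before to 20 after the start was in 8.9%, 11.1% and 11.2%. A match is a string of letters and not a shown binding site.

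The members differed from other genes in length. Their median coding length was 744 bases, against 1404 over all genes tested, and 39.9% of them were under 600 bases, against 12.4%. Genes that met the same rule for cortex (98 with the same names left out) had a median of 2173 bases, and those for cerebellum (73) 1350. Before names were left out, 0.751% of genes tested met the rule in cortex, 0.529% in cerebellum and 0.0501% in white matter. Genes under 600 bases took 12.02% to 13.74% of reads in the spinal cord libraries and 5.48% to 10.61% in the others. The members took 4.36% to 6.17% of reads in spinal cord and 0.97% to 2.03% elsewhere, a separation that the rule fixed in advance. After each library's trend with length was removed, the rule found 282 genes, 157 of them among the 193. With quantile normalization it found 194 (147 shared) and with median-of-ratios scaling 304 (191 shared), and 130 members met the rule under all 3. Of the members described above, Tmsb4x, Apod, Mt1, S100a16, Stmn1, Calca and Npc2 did not meet the rule after the length trend was removed (log2 gaps of -0.09, -0.12, -0.15, -0.12, -0.11, -0.19 and -0.12). Neither did Tomm7, Srp9, Idnk, Plekhb2, Mrpl13 and Mrpl12 (-0.785, -0.734, -0.321, -0.126, -0.121 and -0.05). With quantile normalization, Ywhag, Actb, Stmn1, Hmgcs1, Cyp51, Npc2, Tomm7, Klc1, Psmc5, Psmd4, Srp9, Plekhb2 and Fxr2 did not meet it. Of members named further below, Nat8l, Rtn3, Egln1, Fntb and Ppp1r14a also failed with quantile normalization. Ppp1r14a failed after removal of the length trend as well (-0.376).

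**Figure D3:**
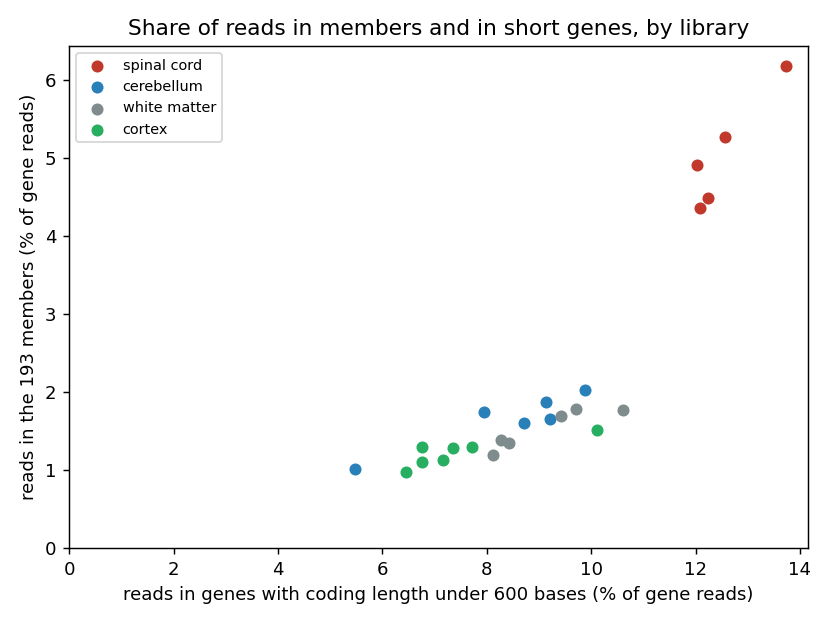
Percentage of gene reads in the 193 members (vertical) against percentage in genes with a coding length under 600 bases (horizontal), 1 point per TRAP library. The 5 spinal cord libraries lie at 12.02% to 13.74% and 4.36% to 6.17%, apart from the 19 others on both axes. The rule fixed the vertical separation in advance. The axes are not independent, since the 39.9% of members under 600 bases count on both.

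Which spinal cord library was highest varied from member to member. Replicate 7 was the highest of the 5 for 72 members, replicate 4 for 54, replicate 5 for 28, replicate 8 for 23 and replicate 3 for 16. The lowest library was replicate 3 for 51, replicate 5 for 40, replicate 8 for 37, replicate 4 for 35 and replicate 7 for 30. Outside spinal cord, the library nearest to it was in cerebellum for 92 members (replicate 3 for 43 of them), in white matter for 63 and in cortex for 38.

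The rule set a ceiling on the 19 other libraries but did not use which region they came from, so the regions were compared with each other. Values were tested with limma on log2(RPKM + 0.5) over all 13982 genes, with Benjamini-Hochberg adjustment over all of them and a threshold of 0.05. Differences are log2 differences on that scale with their standard errors. White matter and cerebellum were both set against the same 7 cortex libraries, so those results share their control.

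Cerebellum stood above cortex for many members. In that comparison 56 of 193 members were higher (29.0%, background 15.3% of genes tested) and 3 lower (1.55%, background 15.9%), together 59 against a background of 31.2%, and the median log2 difference was 0.50 against 0.02 over all genes. All 5 oligodendrocyte genes rose, among them Apod by 2.63 ± 0.43 (SE; limma adjusted p = 4.59e-05), and Serpina3n, Ppp1r14a and Aatk by 0.68 to 1.69. On the list of mature oligodendrocyte genes, 20 of 21 rose with a median of 2.10, and the part of oligodendrocyte share in the members' rise was not tested. Ebf3 was at 13.2 RPKM in cerebellum and 0.411 in cortex, a difference of 3.89 ± 0.52 (limma adjusted p = 3.79e-06), and its groups did not overlap. Nacc2 rose by 1.83 ± 0.25 (limma adjusted p = 4.76e-06), also without overlap, S100a16 by 2.14 ± 0.38 (0.00013) and Shisa8, at 2.18 against 0.186 RPKM, by 1.90 ± 0.36 (0.000288).

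The 3 members lower in cerebellum than in cortex were Nat8l, Klc2 and Ywhag. Nat8l, the neuronal enzyme that makes N-acetylaspartate, was at 112.3 RPKM against 275.9, with no overlap (log2 difference -1.29 ± 0.23, limma adjusted p = 0.000153). Klc2 fell by 0.77 ± 0.25 (limma adjusted p = 0.0201), and Ywhag by 0.64 ± 0.23 (0.0345). Without cerebellum replicate 7 only 39 members passed and Klc2 had an adjusted p of 0.0608 by limma. Ywhag lost its call without any 1 of cerebellum replicates 5, 6, 7 and 8 or cortex replicates 2, 3, 4 and 7, with limma adjusted p between 0.0505 and 0.0799.

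White matter differed from cortex in fewer members. Here 12 of 193 were higher (6.22%, background 5.95%) and 1 lower (0.518%, background 4.3%), together 13 against a background of 10.2%, with a median of 0.34 against -0.02 over all genes. Crip1, at 5.46 against 0.914 RPKM, rose by 2.11 ± 0.52 (limma adjusted p = 0.0127), Imp3, a nucleolar protein of ribosome assembly, by 1.17 ± 0.30 (0.0156), and Apod by 1.63 ± 0.43 (0.0178). Mrpl13 rose by 0.93 ± 0.25 (limma adjusted p = 0.0221) and Nudc by 0.74 ± 0.21 (0.0255). Nat8l was the lower one, at 151.7 against 275.9 RPKM (-0.92 ± 0.23, limma adjusted p = 0.0147). The mature oligodendrocyte list rose in 19 of 21 genes here.

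The count for white matter against cortex moved with single libraries. It was 4 without white matter replicate 3, 7 without replicate 8 and 29 without replicate 7. It was 8 without cortex replicate 2, 6 or 8, 6 without replicate 5 and 24 without replicate 7. The share of all genes called in each of these fits is not given here, so a shift of the members cannot be told from one of all genes. Without white matter replicate 3 the limma adjusted p was 0.0574 for Apod, 0.0501 for Imp3 and 0.0605 for Nudc, which also lost its call without white matter replicate 6 (0.0562) or cortex replicate 5 (0.0539). Nudc also lost its call with the replicate block (0.063), with voom (0.0556) and in the limma fit of all 24 TRAP libraries (0.0749), and Crip1 with voom (0.0554).

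Cerebellum and white matter differed in 9 members, 8 higher in cerebellum (4.15%, background 4.32%) and 1 lower (0.518%, background 8.91%), where 13.2% of all genes were called. Ebf3 rose by 3.12 ± 0.54 (limma adjusted p = 0.000194), Nacc2 by 1.12 ± 0.26 (0.00378) and Shisa8 by 1.54 ± 0.38 (0.00584). Vamp1 was at 274.1 RPKM in cerebellum and 139.8 in white matter (0.98 ± 0.25, limma adjusted p = 0.00823). Kctd9 rose by 1.14 ± 0.29 (limma adjusted p = 0.00849), and Fntb, the beta subunit of protein farnesyltransferase, by 1.26 ± 0.32 (0.00864). Slc6a11 was lower in cerebellum, at 9.92 against 22.6 RPKM (-1.51 ± 0.44, limma adjusted p = 0.0211). It lost its call without cerebellum replicate 3 (limma adjusted p = 0.0504), cerebellum replicate 7 (0.0538) or white matter replicate 6 (0.0502).

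Ranked by mean level in the 3 regions outside spinal cord, cerebellum was highest for 124 members, white matter for 51 and cortex for 18. Over all genes tested the shares were 37.6%, 26.3% and 36.1%. Cortex was the lowest of the 3 for 140 members, against 38.0% of all genes tested. The members' order by region is a description of means.

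**Figure D4:**
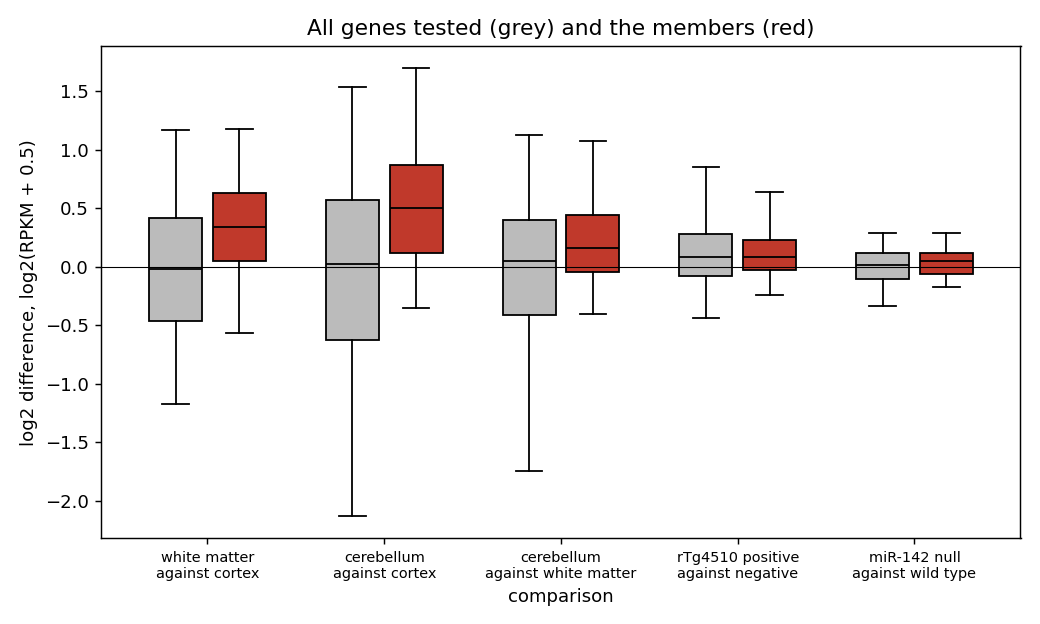
Log2 differences on the log2(RPKM + 0.5) scale for all genes tested (grey) and the members (red) in 5 comparisons; boxes show the quartiles and the median, whiskers the 5th to 95th percentile. The members' median is 0.50 for cerebellum against cortex, where that of all genes is 0.02, and 0.08 against 0.09 in rTg4510.

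In the frontal cortex of rTg4510 mice, 192 members were tested. Of these 15 were higher in positive than in negative libraries (7.81%, background 5.77%) and 2 lower (1.04%, background 1.65%), together 17 against a background of 7.42%, with a median log2 difference of 0.08 against 0.09 over all genes. In bulk tissue, fewer cells of a type and less RNA per cell cannot be told apart. Npc2 was at 97.9, 103.4 and 94.0 RPKM in the negative libraries and at 166, 188 and 161.5 in the positive ones, a rise of 0.80 ± 0.09 (limma adjusted p = 0.00284). Pon2, a paraoxonase of cell membranes, was at 34.6, 35.0 and 36.3 against 53.9, 55.3 and 62.7 RPKM, a rise of 0.69 ± 0.09 (limma adjusted p = 0.00499). The groups did not overlap for either gene.

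S100a13, S100a16, Mt1 and Lbh also rose in the rTg4510 positive libraries. S100a13 was at 22.71, 23.01 and 25.02 RPKM in negative and 37.5, 39.1 and 35.0 in positive libraries (0.65 ± 0.09, limma adjusted p = 0.00689), and S100a16 at 102.8, 96.6 and 103.1 against 153.5, 149.9 and 137.2 (0.54 ± 0.08, 0.0085). Mt1 was at 707, 648 and 909 RPKM in negative and 1698, 1262 and 1811 in positive libraries (1.07 ± 0.17, limma adjusted p = 0.0126). Lbh was at 109.9, 106.7 and 126.2 against 157.0, 216 and 209.9 (0.75 ± 0.14, limma adjusted p = 0.0184). No group overlapped another for these 4 genes. On the list of microglia genes, 9 of 11 rose in the same libraries. So did 10 of 13 on the complement and MHC list and 8 of 16 on the astrocyte list. No gene on these lists was called lower. Whether those cell types take part in the rise of the members was not tested.

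Vamp1 and Rtn3 fell in rTg4510. Vamp1 was at 304, 272 and 390 RPKM in the negative and 200.1, 225 and 173 in the positive libraries (-0.68 ± 0.15, limma adjusted p = 0.0355). Rtn3, a reticulon of the endoplasmic reticulum, was at 300.0, 287 and 295 against 244, 241 and 216 (-0.33 ± 0.08, limma adjusted p = 0.0464). Apod was at 230.5, 248 and 197 against 321, 611 and 694 RPKM, which missed the threshold (limma adjusted p = 0.0525), and Slc6a11 averaged 48.7 against 116.9 (0.09). Lars2 was at 10.1, 9.44 and 8.32 RPKM in negative and 3.01, 3.90 and 95.8 in positive libraries, so 1 library stood apart from the rest of its group.

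The rTg4510 calls rested on few libraries. The count of 17 members became 4 without negative replicate 1, 7 without negative replicate 3, 32 without positive replicate 1, 4 without positive replicate 2 and 5 without positive replicate 3. The share of all genes called in each of these fits is not given here. Npc2, Pon2 and S100a13 passed in each of these fits. Lbh (limma adjusted p up to 0.081) and Vamp1 (up to 0.128) lost their call without negative replicate 1 or positive replicates 2 or 3, and Vamp1 also without negative replicate 3. Mt1 lost it without negative replicate 1 (limma adjusted p = 0.0567) or positive replicate 3 (0.0602), S100a16 without positive replicate 2 (0.0513), and Rtn3 without any library but positive replicate 1 (up to 0.169). With the length trend removed S100a16 (limma adjusted p = 0.0577) and Lbh (0.0647) lost their call, with no filter on low values Vamp1 (0.0564) and Rtn3 (0.0586), and Rtn3 also with voom (0.0502).

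**Figure D5:**
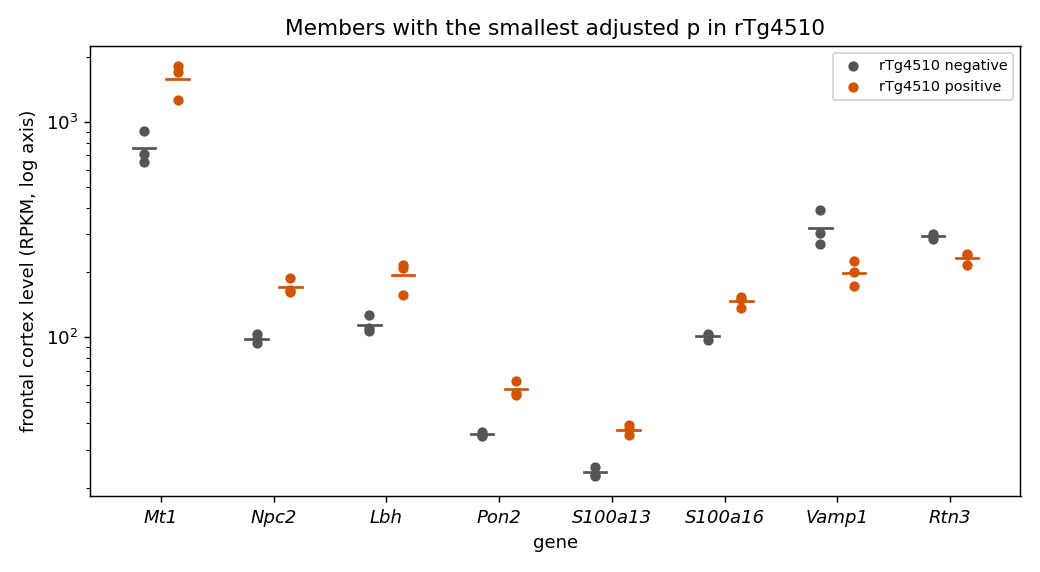
Level in frontal cortex (RPKM, log axis) of 8 members in the 3 rTg4510 negative and 3 positive libraries; points are libraries and bars are group means. Npc2, Pon2, S100a13, S100a16, Mt1 and Lbh are higher in all 3 positive libraries, and Vamp1 and Rtn3 lower.

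In the prefrontal cortex of miR-142 mice the members differed little. miR-142-3p is a microRNA of blood-derived cells and microglia, which pairs with target mRNAs and lowers their output. Among 191 members tested, null against wild type gave 1 higher (0.524%, background 0.209%) and 1 lower (0.524%, background 0.259%), together 2 against a background of 0.468%. Egln1, the oxygen-sensing prolyl hydroxylase, was at 60.9, 64.8, 58.8 and 66.7 RPKM in null libraries and 79.1, 78.9, 79.1 and 75.7 in wild type, with no overlap (-0.32 ± 0.06, limma adjusted p = 0.0493). The heterozygous libraries, at 64.5, 69.8, 67.3 and 76.3 RPKM, overlapped both. The member that rose was 2010107E04Rik, at 189.8 ± 6.42 against 161.3 ± 7.86 RPKM (SD, n = 4; 0.24 ± 0.05, limma adjusted p = 0.0493), a name of the kind that the naming rule leaves out, so it was chosen after its values were seen.

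Both calls were at the edge of the threshold. The count of 2 members became 12 without null replicate 2, 7 without wild-type replicate 1 and 0 without any 1 of the other 6 libraries. Over those fits the limma adjusted p of Egln1 reached 0.159, without null replicate 3. Heterozygous against wild type gave no call with limma among the members or among all genes (background 0%). An unadjusted p under 0.05 was found for 15 of 191 members and for 1008 of 13879 genes tested. The smallest p values belonged to Hmgcs1 (0.17 ± 0.05, limma adjusted p = 0.674) and Stmn3 (0.21 ± 0.07, 0.674). Null against heterozygous gave none either (background 0%). Here 7 of 191 members and 456 of 13879 genes tested had an unadjusted p under 0.05. The 7 were led by Imp3 (0.25 ± 0.09, limma adjusted p = 0.99) and Hint1 (0.12 ± 0.05, 0.99). The titles of these libraries carry a number, 14 for null, 14 or 13 for heterozygous and 13 or 15 for wild type. Null and wild type share no number, so for that comparison number and genotype cannot be told apart. Heterozygous libraries share 14 with null and 13 with wild type. The titles also carry the letter F or M, and both letters occur in each genotype. The meaning of number and letter is not given in the sources used here.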

How the data were processed

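Ribosome-bound RNA (24 TRAP libraries of 4 regions) and bulk cortex RNA (6 rTg4510 and 12 miR-142 libraries) were sequenced by the authors, who deposited 1 table of RPKM values for each of the 3 sets. STAR, HTSeq and the build mm10 are named in the submitters' processing notes. A pair of library kits is described per the labels' protocols, without saying which set used which, and tables were compared only within themselves. Gene names and coordinates came from RefSeq on GRCm38.p6, which matched all 193 members, 14 of them through a synonym.

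The members and the gene lists were chosen with earlier results of these data known. The genes named, leaving out predicted genes and names ending in Rik, were the 12 with the largest gap, the 12 with the highest spinal cord mean, members on the fixed lists, up to 6 called members in each direction per comparison (or the 2 with the smallest p) and the 5 nearest to the threshold on each side. Some genes that this rule names are not reported here.

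Whole reads were recovered from the steps of the RPKM values: 18782 of 18782 genes above 0 gave whole reads within 0.005 of a read. This gave depth, coding length (93.0% of recovered lengths were multiples of 3) and counts for an alternative test (voom). Differences were fitted with limma (version 3.58.1, under R 4.3.3) to log2(RPKM + 0.5), with trend and robust variance. A gene entered where it reached 0.5 RPKM in 5 or more of the TRAP libraries, 3 or more for rTg4510 and 4 or more for miR-142. The test was tried on simulated data with planted changes. Alternatives were another pseudocount, filter, scaling, test, sample set, covariate, the replicate number as a block, and leaving out each library; removal of the length trend from the tests was added after seeing the data.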

Additional observations from a re-analysis of the deposited data

Results flagged for a closer look

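For the 30 members named by gap, level or list, the highest and lowest library of each region was compared with the nearest other library of that region, and 25 gaps were wider than Dixon's critical value among 120 groups examined. The critical value is set to be passed in about 1 in 20 groups of values that were not selected. These genes were chosen on the same values, so the 25 cannot be set against that rate.

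In spinal cord, replicate 4 stood above its group for 5 genes: Vamp1 (2660 RPKM, the next library at 1526), Chodl (110.5, next 13.1), Ypel5 (1711, next 1083), Calca (105.7, next 34.4) and Slc6a11 (289.2, next 65.9). Replicate 7 stood above it for 3, namely Gpx4 (236.7 RPKM, next 118.8), Bola2 (229.3, next 109.4) and Fau (319.6, next 176.1). Replicate 5 did so for Lbh (987.7 RPKM, next 577.0).

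Cortex replicate 7 was far above the other cortex libraries for Gpx4 (20.19 RPKM), Lbh (91.23), Tmsb4x (3825), Mt1 (342.2), Stmn1 (787.2), Calca (0.2764), Eef1b2 (177.9) and Fau (50.89), which are 8 of the 25. Cortex replicate 4 was high for Tssc4 (21.25 RPKM) and Chodl (1.003), and cortex replicate 5 low for Actb (341.0). White matter replicate 3 was high for S100a6 (57.89 RPKM), Apod (2686) and Calca (12.66), and white matter replicate 2 for Ypel5 (595.1). Cerebellum replicate 3 was high for Ywhag (798.1 RPKM).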

How the results depend on the processing

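With SC replicates 4 and 7 left out together the rule found 516 genes and with median-of-ratios scaling 304. Over the libraries left out 1 at a time, it found 193 to 301, where 193 is a floor that the rule fixed in advance. Members called over the same omissions ranged from 4 to 29 for white matter against cortex, 39 to 86 for cerebellum against cortex, 7 to 12 for cerebellum against white matter, 4 to 32 for rTg4510 and 0 to 12 for miR-142 null against wild type, and were 0 throughout for the other 2 miR-142 comparisons. The rTg4510 count of 17 became 11 with no filter on low values, 11 with median-of-ratios scaling, 11 with quantile normalization and 9 with the length trend removed. The miR-142 null count of 2 became 0 with a pseudocount of 1, with no filter, with median-of-ratios scaling, with the title code letter as a covariate and with the length trend removed, and 1 with voom; the cause was not tested. With the length trend removed, 15, 64 and 12 members were called in the 3 region comparisons, against 13, 59 and 9. For none of the alternative fits is the share of all genes called given here, so these counts do not tell a shift of the members from one of all genes. Of 713 alternative values for 36 single-gene results, 659 kept their direction and side of the threshold, 54 kept the direction and lost the call, and 0 changed sign.

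Same-number pairs of TRAP libraries deviated together somewhat more than other pairs. The 31 same-number pairs had correlations of their deviations from -0.236 to 0.272 (median 0.06, 13 over 0.1). The 184 other pairs had a median of -0.021 and a highest value of 0.354, with 24 over 0.1. Of the 24 libraries, 7 correlated best with their own number. Whether a number marks a shared origin is not given in the sources used here, and a pairing was not excluded. The main fits treated the libraries as independent. With the number as a replicate block, 12, 54 and 9 members were called in the 3 region comparisons, against 13, 59 and 9 without it. Titles of the rTg4510 and miR-142 libraries carry no shared replicate number. Depth limits low values most in spinal cord replicate 7, with 3.26 M reads.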
